A study of Mus musculus with 6 samples.

Results

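The genes described here are the mouse genes for mitochondrial ribosomal proteins. They were chosen by symbol, as every gene of the authors' comparison table named Mrpl or Mrps with a number and at most 1 further letter. That gave 78 genes, 49 with Mrpl symbols, given to large subunit proteins, and 29 with Mrps symbols, given to small subunit proteins, out of 55487 genes counted. The rule uses symbols and no threshold on a measured value. Bulk RNA sequencing was done on whole retinas of C57BL/6 embryos at embryonic day 16.5, both eyes of an embryo combined. The 3 libraries labelled control came from embryos with Foxp1 fl/fl alleles, in which Foxp1, a forkhead transcription factor gene, carries sites for Cre recombinase but no Cre was present. The other 3 libraries, labelled cKO (conditional knockout), came from littermates (all 6 embryos were of 1 litter) with the same Foxp1 fl/fl alleles and Six3-Cre, which expresses Cre under the control of Six3, a gene of the early eye field. No library carried Cre without the floxed alleles, so the presence of Cre and the loss of Foxp1 cannot be told apart. The question was what loss of Foxp1 does to the transcripts of the embryonic retina.

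Mitochondria hold their own ribosome, the mitoribosome, which translates the few proteins encoded by the mitochondrial genome, all of them parts of the respiratory chain and the ATP synthase. Its ribosomal RNAs come from the mitochondrial genome, but its proteins are encoded in the nucleus, made in the cytoplasm and imported. The proteins fall into those with a counterpart in the bacterial ribosome and those added in mitochondria, which cover much of the surface. The small subunit reads the messenger RNA, the large subunit joins the amino acids, and the finished chain leaves through a tunnel that faces the inner membrane. A growing retina needs respiratory chain subunits in progenitors and in new neurons alike.

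The targeted gene went against the labels at the level of the whole gene. Foxp1 had 50.8, 41.1 and 46.2 CPM (counts scaled for the size and composition of each library) under the labels control 1 to 3 and 72.4, 75.5 and 68.8 CPM under the labels cKO 1 to 3. Its log2 fold change, labelled cKO over labelled control, was 0.65 with a standard error (SE) of 0.07 and an adjusted p of 4.63e-05 in edgeR's quasi-likelihood test, and the authors' deposited table gives -0.60. Counts were per whole gene, so exons removed by Cre were not seen apart from the rest. Every direction below therefore follows the labels, and the authors' deposited table has the opposite sign for 92.6% of all tested genes and for 77 of the 78 described here. Xist and the Y-linked genes also went against the labelled sex in the library labelled control 2 and in that labelled cKO 2. Foxp1 in these 2 libraries, at 41.1 and 75.5 CPM, was near the others of the same label. Whether those 2 libraries alone were exchanged, or the genotype labels reversed as a whole, was not tested. The first would change the group means below. The second would exchange those 2 libraries as well and would turn every direction. Depth ran from 23707761 to 25714620 counts per library. A list of 6 markers of new retinal neurons, Tubb3 and Isl1 among them, had a summed level of 2489 to 2789 CPM in the 6 libraries.

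The promoter sequences are shown first. The members sit on 17 chromosomes, and their fold changes were small, with 70 of the 78 above 0 and 8 below. Whether promoter sequence has a part in this was not tested. RefSeq (GRCm38.p6) gave a window from 250 bases before to 50 bases after the transcription start for 69 of the 78 genes, 75 windows in all. Mrps24 (ENSMUSG00000020477), the single member that passed the test, encodes a small subunit protein near the path of the messenger RNA. Its gene spans chr11:5703983-5715680 on the minus strand, and the 250 bases upstream of its RefSeq start (chr11:5707702-5707951) lie inside the gene's GENCODE span. Capitals mark TTTATA, the reverse complement of the TATA motif TATAAA.
Mrps24: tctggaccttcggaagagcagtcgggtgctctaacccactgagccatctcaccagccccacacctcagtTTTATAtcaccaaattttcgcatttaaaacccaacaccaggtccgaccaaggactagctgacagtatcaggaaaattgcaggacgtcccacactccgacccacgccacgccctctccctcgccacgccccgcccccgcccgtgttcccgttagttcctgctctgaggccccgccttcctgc
Mrpl12 (ENSMUSG00000039640), of the large subunit, is shown for contrast, since its upstream window (chr11:120484387-120484636, plus strand) holds none of the 6 motifs searched.
Mrpl12: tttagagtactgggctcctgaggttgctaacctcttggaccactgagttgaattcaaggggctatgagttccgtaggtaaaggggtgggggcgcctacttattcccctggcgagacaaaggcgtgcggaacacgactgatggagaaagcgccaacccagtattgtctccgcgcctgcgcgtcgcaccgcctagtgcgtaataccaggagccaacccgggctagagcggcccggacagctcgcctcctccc

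The motifs searched, on both strands, were ETS (CCGGAAG), YY1 (AAGATGGC), NRF1 (GCGCATGC), the E-box (CACGTG, the same on both strands), a forkhead motif (GTAAACA) and the TATA box motif, TATAAA. None of these letter strings contains another. ETS, YY1 and NRF1 motifs are classes known from promoters of housekeeping and mitochondrial genes, and the forkhead motif is the class that Foxp1 binds. The ETS letters occurred in 26 of 75 member windows (34.7%), against 8.86% of all 32851 RefSeq windows of that length and 15.8% of the 14687 windows of tested genes. YY1 letters occurred in 12 (16%), against 2.75% and 3.99%. Some of these matches lay after the transcription start, as in Mrps24 (first base 37), and others before it, as in Mrps12 (first base -199). NRF1 letters occurred in 8 (10.7%), against 2.71% and 4.81%. E-box letters occurred in 9.33% of member windows and 9.53% of windows of tested genes, and TATA letters in 6.67% and 7.05%. Forkhead letters occurred in 2 member windows (2.67%), against 3.65% of all windows and 2.45% of those of tested genes. A match is a description of letters, not a bound site or a cause.

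Examples of the matches follow, each with 10 bases on either side where the window allows, the motif in capitals and read along the gene's strand. They are shown for members whose values are given below.
Mrpl52 ETS, chr14:54426852-54426878: aagatgtcggCTTCCGGttttcccggc
Mrpl52 ETS, chr14:54426901-54426927: gccacgcccaCTTCCGGttcccttgct
Mrps16 ETS, chr14:20393548-20393574: tgggggcgctCTTCCGGgcttcaggct
Mrpl27 ETS, chr11:94653726-94653752: tccgcaagacCCGGAAGtagatctatc
Mrpl34 ETS, chr8:71464879-71464905: actacagctcCCGGAAGgccccgcggc
Mrps24 YY1, chr11:5707652-5707675: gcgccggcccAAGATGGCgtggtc
Mrps7 YY1, chr11:115604148-115604175: gacagcggccAAGATGGCtgcccccgcg
Mrpl10 NRF1, chr11:97041438-97041465: ccagctccacGCATGCGCatagcggccc
Mrpl40 forkhead, chr16:18876777-18876803: tttcatagatGTAAACAcataggccag
Mrpl44 forkhead, chr1:79775799-79775825: aagactgaatGTAAACAagaaatgttt
The 26 genes with the ETS letters had a median log2 fold change of 0.14, with 24 above 0. The 43 matched genes without them had a median of 0.10, with 37 above 0. For YY1 the order was the other way, with a median of 0.08 and 9 of 12 above 0 with the letters and 0.12 and 52 of 57 without. For NRF1 the medians were 0.13 with (8 genes) and 0.10 without (61 genes). For any of ETS, YY1 or NRF1 the medians were 0.11 with (38 genes) and 0.10 without (31 genes). None of these differences was tested.

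Most mitochondrial ribosomal protein genes stood slightly higher in the libraries labelled cKO, each by a small amount. The authors' deposited table has the other sign, with 71 of the 78 below 0 and a median log2 fold change of -0.13. Of the 78 genes, all passed the filter on low counts, 70 had a log2 fold change above 0 and 8 below 0, where 50.1% of the 17275 tested genes were above 0. The median log2 fold change was 0.11 (range -0.13 to 0.31), against 0.00073 over all tested genes, and the median SE was 0.07. Mrps24 was called higher at an edgeR adjusted p under 0.05 and no member was called lower, where 0.781% of tested genes were called in either direction and 0.295% were called higher. At an unadjusted p under 0.05 there were 26 members, each of them higher, where 7.83% of tested genes were higher at that p. In 24 members every library labelled cKO lay above every library labelled control, a pattern seen in 10.8% of tested genes, and in 0 members did every one lie below, where the background was 9.3%. Of these 24, the ones not described further are Mrpl17, Mrpl43, Mrpl40, Mrpl19, Mrpl58, Mrpl9, Mrpl15, Mrpl30 and Mrpl36, with log2 fold changes from 0.08 (Mrpl36) to 0.19 (Mrpl17) and 0.16 for Mrpl40. No member reached a change of 1.3-fold in either direction, and 3 reached 1.2-fold.

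**Figure D1:**
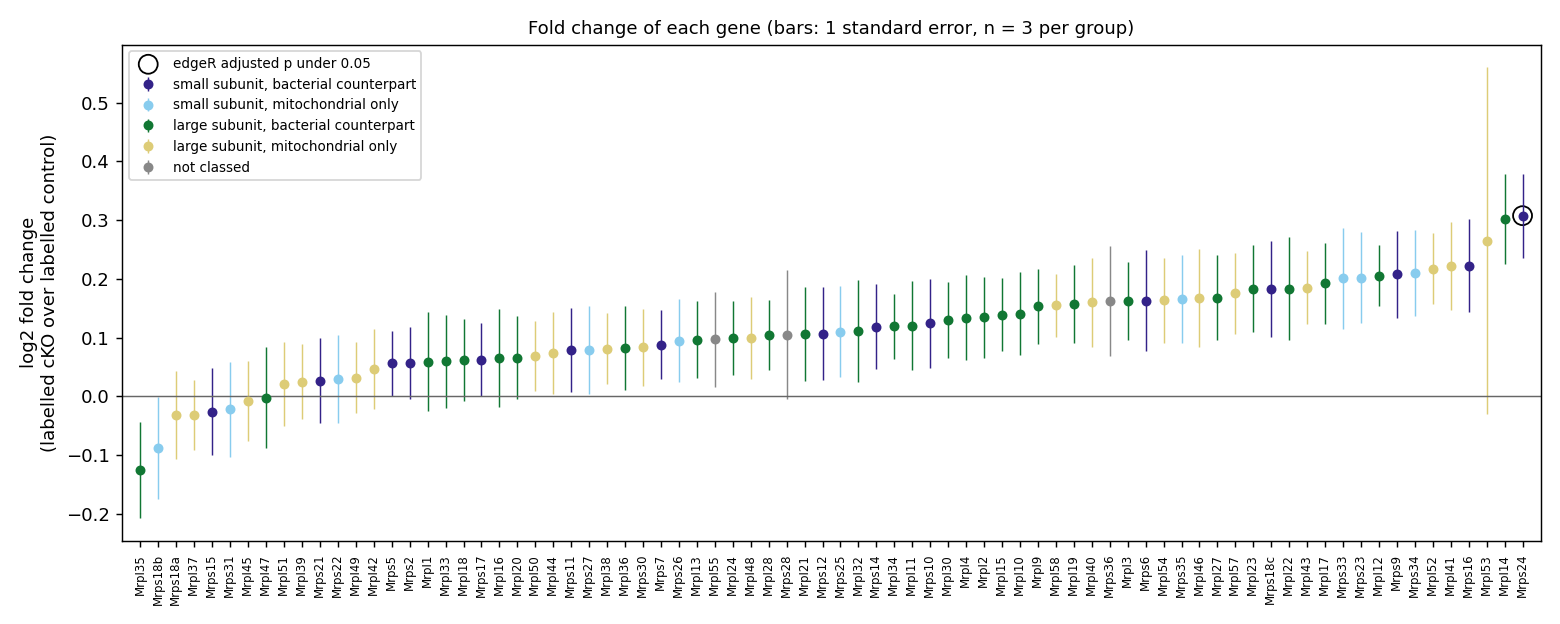
Log2 fold change (labelled cKO over labelled control) of each of the 78 genes, ordered by value, with colours for subunit and origin. Bars are 1 SE, derived from the statistic of the edgeR test (n = 3 per group). Values run from -0.13 for Mrpl35 to 0.31 for Mrps24, the circled gene, and 70 points lie above 0.

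Summed over the 78 genes, the level was 2243, 2353 and 2372 CPM in the libraries labelled control 1 to 3 and 2429, 2586 and 2513 CPM in those labelled cKO 1 to 3. The groups did not overlap, but the library labelled cKO 1 lay closer to those labelled control 2 and control 3 than to cKO 2. The means were 2322 ± 69.9 and 2509 ± 78.3 CPM (SD, n = 3 each), a difference of 8.04%. The 29 genes with Mrps symbols summed to 733, 772 and 764 CPM and then to 793, 830 and 817 CPM, a difference of 7.59%. The 49 with Mrpl symbols summed to 1509, 1581 and 1608 CPM and then to 1636, 1755 and 1695 CPM, a difference of 8.26%. The difference between these sums was not tested, and symbols do not always give the subunit, as described below for Mrps18a, Mrps30 and Mrps36. The whole set made up 0.223% to 0.237% of all counts in the libraries labelled control and 0.241% to 0.257% in those labelled cKO.

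Libraries of 1 label differed among themselves. The library labelled cKO 2 was the highest of the 6 for 41 members, cKO 3 for 23 and cKO 1 for 7. The library labelled control 1 was the lowest for 47 members, control 2 for 13 and control 3 for 9. The median member lay at -0.10, -0.03 and -0.03 from its own mean on the log2 scale in the libraries labelled control 1 to 3, and at 0.01, 0.10 and 0.05 in those labelled cKO 1 to 3. The SD of these library medians within groups was 0.04, and the members' median log2 fold change was 0.11. With 3 libraries per group that SD is itself uncertain, and the 2 values were not tested against each other. Without the library labelled cKO 2 the members' median log2 fold change was 0.08 with 68 above 0, and without cKO 1 it was 0.15 with 75 above 0. Without both libraries numbered 2, whose sex-linked genes went against the labels, the median was 0.11 with 67 above 0.

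**Figure D2:**
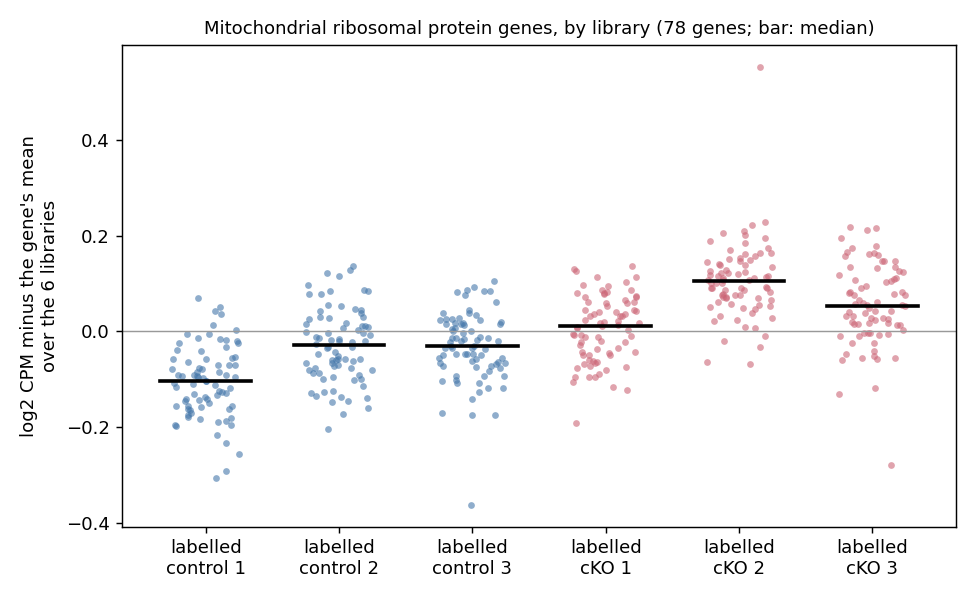
Level of each of the 78 genes in each library as log2 CPM minus the gene's own mean over the 6 libraries (points), with the library's median (bar). The medians lie between -0.10 in the library labelled control 1 and 0.10 in that labelled cKO 2, and the point clouds of all 6 libraries overlap.

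Among the small subunit genes with a bacterial counterpart, 14 of 15 were above 0, with a median of 0.11. The values of a gene are given throughout for the libraries labelled control 1 to 3 first and then for those labelled cKO 1 to 3. Mrps24 had 26.3, 29.7 and 27.4 CPM under the label control and 32.2, 35.2 and 35.8 CPM under the label cKO. The groups did not overlap, and the mean went from 27.8 ± 1.72 to 34.4 ± 1.92 CPM (SD, n = 3), 1.24-fold. Its log2 fold change was 0.31 (SE 0.07), with an edgeR adjusted p of 0.047, close to the threshold. That p was 0.16 without the library labelled control 1, 0.076 without control 2, 0.32 without cKO 2, 0.16 without cKO 3 and 0.60 without both libraries numbered 2. It was above 0.05 under 11 of 17 alternatives in all. The authors' deposited table gives -0.34 with an adjusted p of 0.011, and of the 46 members with an adjusted p there 1 is under 0.05, against 8.97% of the genes with an adjusted p in that table. Mrps24 shares 226 exon bases on the same strand with Urgcp, whose own log2 fold change was -0.08.

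The next small subunit gene was Mrps16, a protein of the body of the subunit known from a human mitochondrial disease. It stood at 18.9, 21.4 and 18.8 CPM and then at 21.4, 23.5 and 24.1 CPM, so that the lowest library labelled cKO and the highest labelled control almost met. Its log2 fold change of 0.22 (SE 0.08) did not pass (edgeR adjusted p = 0.15). Mrps18c, 1 of 3 mammalian relatives of a single bacterial protein, had a log2 fold change of 0.18, from 16.7 ± 0.503 to 19.0 ± 1.5 CPM (SD, n = 3). Mrps12, which helps form the decoding centre and is the relative of the bacterial protein altered in streptomycin resistance, had 0.11, and its groups overlapped. Mrps7, of the head of the subunit, had 0.09, with 41.7 to 42.8 CPM against 44.0 to 45.6 CPM and no overlap. Mrps10 (0.12), Mrps2 (0.06), Mrps21 (0.03) and Mrps15 (-0.03), also of this class, were all within 2 SE of 0, and none of these passed the test.

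Of the 10 small subunit genes with no bacterial counterpart, 8 were above 0, with a median of 0.10. Mrps34, needed for a stable small subunit, stood at 18.8, 20.3 and 20.4 CPM and then at 22.3, 23.0 and 23.6 CPM. Its groups did not overlap, and its log2 fold change was 0.21 (edgeR adjusted p = 0.14). Its exons share 763 bases with Nme3 on the same strand and 1309 with Mapk8ip3 on the opposite strand, so its counts are uncertain. Mrps22, altered in an inherited respiratory chain deficiency, had 0.03, from 21.2 ± 1.45 to 21.7 ± 0.373 CPM (SD, n = 3). Mrps18b, classed here because it sits at a place of its own in the small subunit although its sequence is related to the same bacterial protein as Mrps18c, had -0.09, with 13.6, 15.0 and 14.2 CPM and then 13.8, 13.2 and 13.3 CPM. Mrps18a (-0.03) and Mrps30 (0.08) carry small subunit symbols but are known to sit in the large subunit. Mrps36 (0.16), now known as a part of the oxoglutarate dehydrogenase complex, had 11.0 to 11.5 CPM and 12.1 to 12.9 CPM without overlap, and it has 3 named pseudogenes that could take or give reads.

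Among the 29 large subunit genes with a bacterial counterpart, 27 were above 0, with a median of 0.12. Mrpl14, on the face of the large subunit that meets the small one, stood at 21.1, 23.5 and 25.3 CPM and then at 28.2, 28.0 and 30.0 CPM. The groups did not overlap, but the log2 fold change of 0.30 (SE 0.08) did not pass (edgeR adjusted p = 0.058). Its gene (ENSMUSG00000023939, chr17:45686322-45698495) shares 106 exon bases on the opposite strand with Tmem63b, at -0.09. Mrpl12, a protein of the stalk where translation factors dock, which is also known to bind the mitochondrial RNA polymerase, stood at 51.9, 56.4 and 53.3 CPM and then at 62.6, 63.7 and 60.1 CPM. Its lowest library labelled cKO was above its highest labelled control, with a log2 fold change of 0.21 (SE 0.05, edgeR adjusted p = 0.058). The other stalk proteins lay lower and their groups overlapped, with 0.14 for Mrpl10 and 0.12 for Mrpl11. Mrpl14 and Mrpl12 were called with DESeq2 and with no filter on low counts.

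Other proteins of the conserved core had like values. Mrpl3, near the catalytic centre, stood at 36.5 ± 2.48 and 40.9 ± 0.810 CPM (SD, n = 3), and Mrpl27, beside the peptidyl transferase site, at 20.5 ± 0.672 and 23.1 ± 0.717 CPM. Neither overlapped between groups, and neither passed, with edgeR adjusted p of 0.21 and 0.24. At the mouth of the exit tunnel, Mrpl23 had a log2 fold change of 0.18 and Mrpl24 of 0.10, both with overlap. Mrpl23 has a named pseudogene, and it was called without the library labelled control 3. Mrpl35 had the lowest value of all, -0.13 (SE 0.08, edgeR adjusted p = 0.48), from 20.6, 21.2 and 21.2 CPM and then 17.6, 21.7 and 18.5 CPM. There the library labelled cKO 2 was the highest of the 6 and the other two labelled cKO the lowest.

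Of the 21 large subunit genes with no bacterial counterpart, 18 were above 0, with a median of 0.08. Mrpl52 stood at 39.7, 37.6 and 40.7 CPM and then at 45.3, 46.1 and 45.7 CPM, with a log2 fold change of 0.22 (SE 0.06, edgeR adjusted p = 0.077). The libraries labelled cKO lay close together (SD 0.417 CPM, n = 3) and above all of those labelled control. Mrpl41, which is also known to bind Bcl2, stood at 23.8, 26.0 and 26.1 CPM and then at 27.1, 30.8 and 30.6 CPM, without overlap (0.22, edgeR adjusted p = 0.13). Mrpl57 had 0.18 and Mrpl44, a relative of ribonuclease III, 0.07. Mrpl45, which lies at the tunnel exit near the inner membrane, had -0.01, and Mrpl37 had -0.03. Mrpl53 had a log2 fold change of 0.26 but an SE of 0.30 (edgeR adjusted p = 0.72), from 23 to 44 counts per library. Of its 790 exon bases, 695 are shared on the same strand with the gene model Gm42688, so its count is uncertain.

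**Figure D3:**
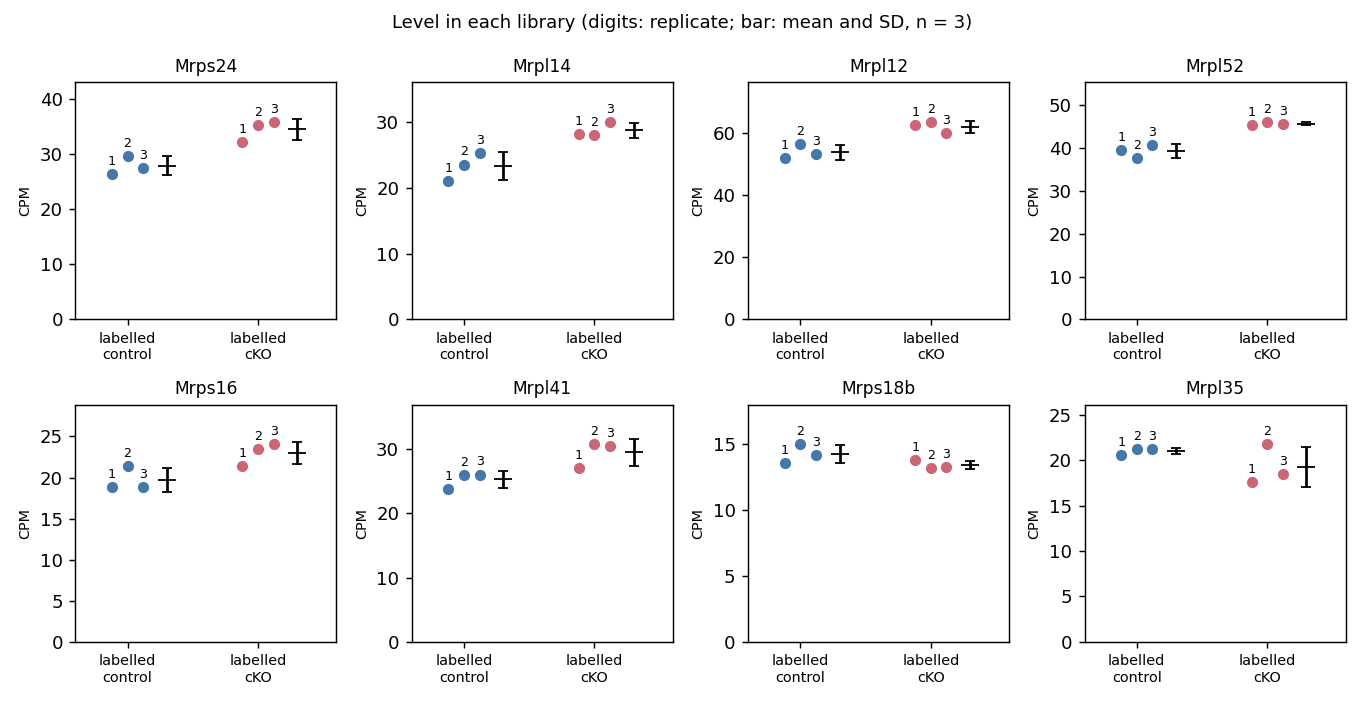
CPM in each library for 8 members, with replicate digits beside the points and the mean and SD (n = 3) at the right of each group. Mrps24, Mrpl14, Mrpl12, Mrpl52 and Mrpl41 show no overlap between groups, while in Mrpl35 the library labelled cKO 2 lies at 21.7 CPM, above every library labelled control.

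The spread between replicates was small for most members. The median coefficient of variation over members was 4.87% in the libraries labelled control and 5.27% in those labelled cKO, and the highest were 17.4% and 29.0%, both of Mrpl53. In 28 members the log2 fold change was more than 2 SE above 0, where 8.53% of tested genes were. In 0 members was it more than 2 SE below 0, where 9.57% of tested genes were. The SE was derived from the statistic of the edgeR test. These counts therefore restate those at an unadjusted p under 0.05 and are not separate evidence.

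Levels of single genes spread much further than the groups differed. Per kilobase of summed exons, the members had a median of 12.6 CPM, against 4.71 over all tested genes, and 68 of 78 were above that. The highest were Mrpl34 (86.5 CPM per kilobase), Mrpl28 (43.1), Mrpl52 (38.3), Mrps21 (38.1) and Mrpl12 (37.9). The lowest were Mrpl53 (1.62), Mrpl33 (2.42) and Mrps10 (2.58), a range of 53.6-fold, and the 90th percentile was 6.27 times the 10th. By class the medians were 12.4 and 6.88 CPM per kilobase for small subunit genes with and without a bacterial counterpart, and 11.4 and 13.2 for large subunit genes. Mrpl34 and Mrpl28, both core proteins of the large subunit, had log2 fold changes of 0.12 and 0.10. Mrpl33, another core protein, had 0.06. Summed exons pool all annotated transcripts of a gene, and for Mrpl33 they come to 7326 bases.

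**Figure D4:**
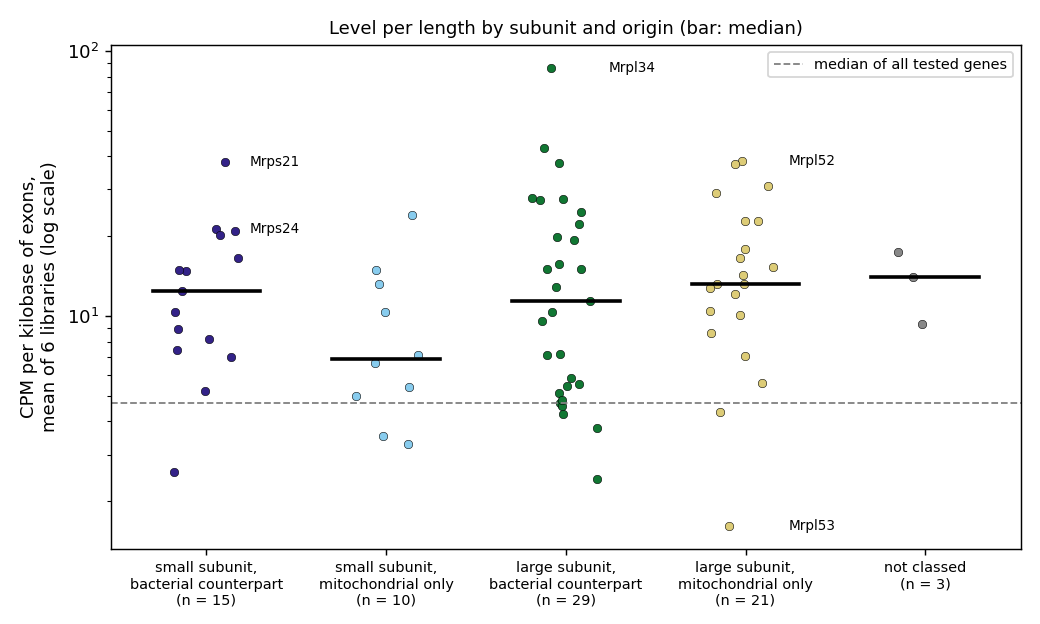
Level of each member in CPM per kilobase of summed exons (log axis, mean of the 6 libraries) by subunit and origin, with class medians as bars and the median of all tested genes, 4.71, as the dashed line. Class medians run from 6.88 to 13.2 for the 4 named classes, and single genes from 1.62 (Mrpl53) to 86.5 (Mrpl34).

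Gene length moved with the fold change across the whole table. Across 17251 tested genes with a GENCODE exon length, Spearman's rho between log2 fold change and length was -0.27, and among the 78 members it was -0.28. These are descriptions over genes, which are not independent. The members are short, with a median of 2394 exon bases against 3922. The 39 shorter members had a median log2 fold change of 0.13 with 37 above 0, and the 39 longer ones 0.10 with 33 above 0. With each library's trend over exon length removed, the median was 0.09 and 65 of 78 were above 0, where 50.0% of all genes were. No member was then called, and Mrps24 had 0.23 with an edgeR adjusted p of 0.15. How much of the members' displacement goes with length in other ways was not tested.

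**Figure D5:**
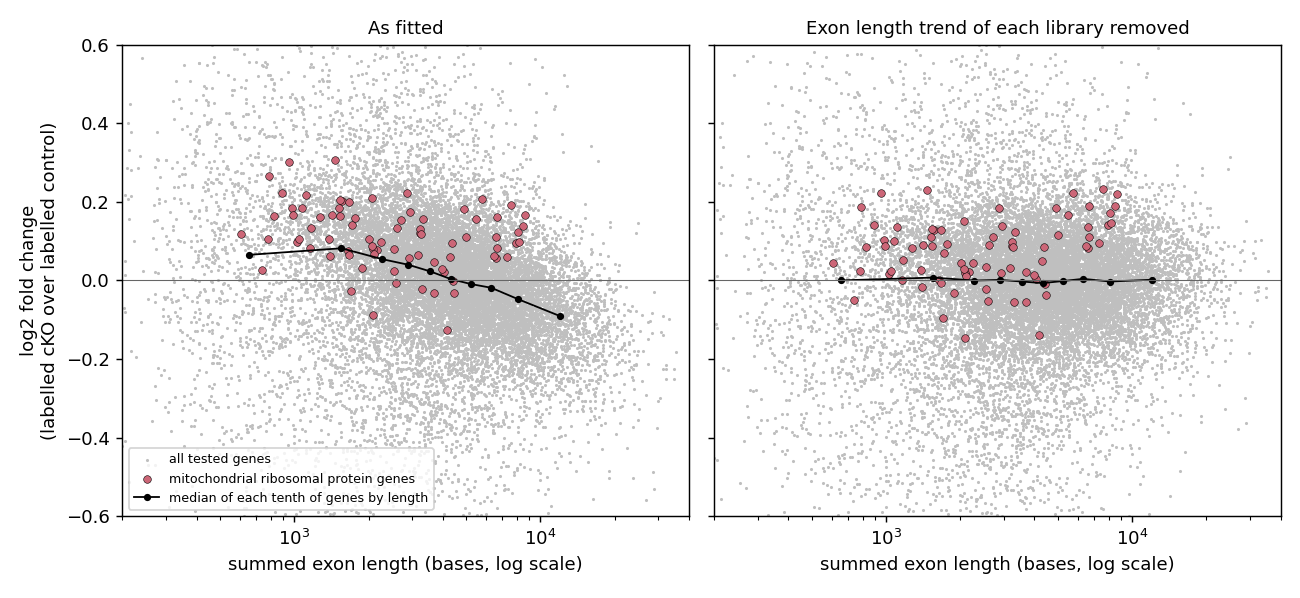
Log2 fold change against summed exon length (log axis) for all tested genes (grey, 17251) and the 78 members (red), as fitted (left) and with each library's length trend removed (right), with medians of genes grouped by length as the black line. The line falls with length on the left and lies near 0 on the right, and the members' median goes from 0.11 to 0.09. Both axes are cut, so tested genes beyond them are not drawn, but the black line uses them all.

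Exons shared with other genes bear on the counts of 33 members, 8 with a gene on the same strand and 28 with a gene on the opposite strand. The library kit keeps strand, but whether the counting used strand is not known here, so reads of opposite partners cannot be told apart. The 33 had a median log2 fold change of 0.11 with 31 above 0, and the 45 that share no exon bases had 0.11 with 39 above 0. Mrpl46 and Mrps11 lie head to head and share 173 exon bases, with 0.17 and 0.08.

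Further lists of the same machinery were read in the same fit. Of 5 further mitoribosome subunits with names of another kind (Dap3, Ptcd3, Chchd1, Aurkaip1 and Gadd45gip1), 5 were above 0 and 0 passed, with a median of 0.09. Ptcd3, which binds the small subunit's ribosomal RNA, had 0.14 and Chchd1 0.12. Of 34 factors of mitoribosome assembly, mitochondrial transcription and translation, 24 were above 0 and 0 passed, with a median of 0.07. Among them Mtrf1, a release factor, had 0.24 (edgeR adjusted p = 0.36) and Slirp, which stabilises mitochondrial messenger RNAs, 0.17 (0.26). Of 17 mitochondrial aminoacyl-tRNA synthetases, which charge the transfer RNAs, 8 were above 0 and 0 passed, with a median of -0.01, with Nars2 at 0.17 and Mars2 at -0.17. The 77 tested cytoplasmic ribosomal protein genes were all above 0, where 50.1% of tested genes were, with a median of 0.17. Of them, 10 were called higher, against 0.295% of tested genes. In 62 every library labelled cKO lay above every library labelled control, against 24 of the 78 members and 10.8% of tested genes. Of the 13 protein genes of the mitochondrial genome, whose messages the mitoribosome reads, 2 were above 0 and 11 below, with a median of -0.15 and 0 called. Differences between these lists were not tested.

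In 2 lists of cell type markers the summed level did not overlap between the groups, and in the others it did. Of single tested genes, 10.8% had every library labelled cKO above every library labelled control, and 9.3% had every one below. The 6 markers of postmitotic retinal neurons summed to 2489 to 2582 CPM under the label control and 2609 to 2789 CPM under cKO. Of these, 2 of 6 were called, where 0.781% of tested genes were. The 5 endothelial markers summed to 328 to 353 CPM and then 297 to 306 CPM, with 0 called. Lens markers varied most, from 51.0 to 746 CPM under the label control and from 14.5 to 203 CPM in those labelled cKO. The part of any of these in the members' values was not tested, and in bulk tissue fewer cells of a type and less RNA per cell cannot be told apart.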

How the data were processed

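RNA was depleted of ribosomal RNA and made into strand-keeping libraries, per the labels' protocols. The authors deposited counts per gene (mm10; featureCounts 1.5.1, STAR 2.7.6a, DESeq2 1.32.0 and cutadapt 2.8 are named in the submitters' processing notes). The authors' deposited comparison table gives log2 fold changes, p-values, a mean normalised signal and a test score per gene. The strand setting is not given in the sources used here.

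Here edgeR 4.0.16 in R 4.3.3 was run on the deposited counts of all 6 libraries: filterByExpr, TMM scaling, robust quasi-likelihood fit, Benjamini-Hochberg adjustment over 17275 genes, threshold 0.05. CPM use TMM library sizes. Each SE is the absolute log2 fold change divided by the square root of the test's F statistic. The fit was tested on simulated data, as a check of the code. Recovery of changes as small as those of the members is not given here. limma 3.58.1 and DESeq2 1.42.0, other scalings, filters and covariates, a replicate block and left-out libraries were alternatives. Each library is a separate embryo of 1 litter, and none of the 15 pairs of libraries matched within sampling noise. Same-numbered libraries did not all deviate together (correlations 0.0853, -0.0515 and 0.1992), so numbers were not taken as pairs. Libraries of unlike number had correlations from -0.2243 to 0.1721, so the value for number 3 was the highest of all. Exon lengths and overlaps come from GENCODE M21, matched by gene ID.

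The members and gene lists were chosen with earlier results of these data known. Genes named are members past the threshold, the 5 largest and 5 smallest fold changes, the 5 highest and 3 lowest levels per length, a fixed list of members by role, the 2 largest changes of each related list, and Foxp1. Mrpl40, Mrpl46, Mrps11 and the other members without overlap between groups were added after their values were seen. Of 6 further subunits listed, Ict1 is the member Mrpl58. The marker list of retinal progenitors is not reported here.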

Additional observations from a re-analysis of the deposited data

How the results depend on the processing

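The members' median log2 fold change lay between 0.08 and 0.15 under all 17 alternatives, with 65 to 75 members above 0 and 0 called lower. Counts of calls did depend on the settings. All genes called and members called higher (135 and 1 as reported) came to 93 and 0 with upper quartile scaling, 78 and 0 with a filter of 10 counts in 3 libraries, 742 and 4 with no filter, 10 and 0 without robust estimation, 492 and 4 with DESeq2, 13 and 0 with limma-voom, 113 and 0 with labelled sex as a covariate, 9 and 0 without both libraries numbered 2, and 38 and 0 with the exon length trend removed. The 4 were Mrpl12, Mrpl14, Mrpl52 and Mrps24 both times. With the replicate block 1065 genes and 5 members (Mrpl41 added) were called. Leaving out 1 library gave 19 to 778 genes, 0 to 6 members and a median of 0.0779 to 0.1534; the 6, without the library labelled control 3, were Mrpl14, Mrpl23, Mrpl43, Mrpl52, Mrps23 and Mrps24. The cause of these changes in calls was not tested.

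Of 697 single-gene values under alternatives (41 genes), 659 kept direction with no change of call seen (16 of them have no adjusted p in DESeq2, so no call there), 14 gained a call, 11 (all Mrps24, at a log2 fold change of 0.23 to 0.36) lost it and 13 changed sign. The sign changes were in genes near 0. With 1 library left out, the log2 fold changes ran from -0.0735 to 0.0232 for Mrps18a, -0.078 to 0.0075 for Mrpl37, -0.0801 to 0.0126 for Mrps15, -0.0083 to 0.0898 for Mrps21, -0.017 to 0.0818 for Mrps22 and -0.0528 to 0.0355 for Mrpl45. Without both libraries numbered 2, Mrps21 had -0.0022, Mrps2 -0.008 and Mrpl45 0.0236. With the exon length trend removed, Mrps21 had -0.0505. Depth limits the members unequally: Mrps24 had 628 to 906 counts per library and Mrpl53 23 to 44.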
